A study of Mus musculus with 8 samples.

Results

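The 10 genes described here encode the machinery with which epithelial cells display peptides on major histocompatibility complex (MHC) molecules. They were H2-Aa, H2-Ab1, H2-Eb1, Cd74 and Ciita of the class II pathway and H2-K1, H2-D1, B2m, Tap1 and Psmb8 of the class I pathway. The members were taken by gene symbol from the 27998 genes of the deposited count tables, and 10 of 10 were found. Their levels were read in 8 epithelial cell types of the small intestinal crypt and compared between control and knockout mice.

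The cells carried EpCAM, a surface protein of epithelium, and excluded the dead-cell dye DAPI when they were sorted from small intestinal crypts of adult female mice on a C57BL/6 background. The control group, labelled WT, was H11 i.enh mice, whose H11 locus holds a LacZ reporter driven by the enhancer with an Shh promoter, and they are therefore not plain wild type. The KO group was Ctnnb1 Δi.enh mice, in which ieCtnnb1, an intestinal enhancer upstream of Ctnnb1 (the gene of β-catenin), is deleted on both alleles. The labels list 4 samples in each group, but the animals of a genotype had been pooled and each group came as 1 matrix, so that there was 1 sample per group, no test between groups was possible and no value could be set against a spread between animals. All intervals given are 95% intervals of counting error only. The matrices held 15987 barcodes with 134876816 unique molecular identifiers (UMIs, the tags that mark single captured transcripts) in WT and 12763 barcodes with 123794575 UMIs in KO, and 57 barcodes occurred in both.

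MHC class I molecules pair a heavy chain with β2-microglobulin and show peptides from inside the cell to cytotoxic T cells. The peptides are cut by the proteasome and pumped into the endoplasmic reticulum by the transporter of which Tap1 is a subunit. Class II molecules are dimers of an α and a β chain that show peptides from endosomes to helper T cells, and the invariant chain Cd74 guards their groove until the peptide is loaded. Outside professional antigen-presenting cells class II is switched on by the coactivator Ciita, usually under interferon gamma, and the intestinal epithelium is a well known site of such expression. Mice of the C57BL/6 background lack a working H2-Ea gene, so that H2-Eb1 transcript is made in them without its usual partner chain.

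Most of the members lie in the MHC locus on chromosome 17, given here in mouse build GRCm38 with positions from GENCODE M21. The class I heavy chain gene H2-K1 occupies chr17:33996017-34000347 on the minus strand. Tap1 (chr17:34187553-34197225) and Psmb8 (chr17:34197721-34201454) follow each other on the plus strand, and Tap1 overlaps Psmb9 of the opposite strand. H2-Ab1 (chr17:34257689-34269419, plus) is followed by H2-Aa (chr17:34282744-34287823, minus) and H2-Eb1 (chr17:34305867-34316674, plus), and H2-D1 stands at chr17:35262730-35267499 on the plus strand. Ciita, at chr16:10480059-10528418, B2m, at chr2:122147686-122153083, and Cd74, on chromosome 18, lie elsewhere. Libraries of this kind read the ends of transcripts, and other genes can share stretches of them. Of the 50-base windows in the last 500 bases of the longest protein-coding transcript, 9.53% occurred in other genes for H2-D1 and 0.443% for H2-K1, while for the other 8 members none did. The other genes were AC132307.5, Adsl and Kcnk4 for H2-D1, and H2-D1 for H2-K1. H2-D1 is therefore the member with most sequence shared with other genes at its end, and the effect on its counts was not tested.

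Class I and class II promoters are known for shared control elements, the X and Y boxes, and class I promoters also for a κB site. Stretches that hold them are printed for the chain genes, whose values carry the comparison. RefSeq (GRCm38.p6) start sites were available for 7 of the 10 members, and H2-Ab1, Cd74 and Ciita were not searched. The 250 bases before each start were searched on both strands for CTGATTGG (a Y box with its CCAAT core), TGATGACG (a form of the X2 box) and GGGATTCC (part of the κB site of the class I enhancer A). Matches are in capitals, and each stretch runs 5′ to 3′ on the strand of the gene.

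H2-Aa, chr17:34287847-34287914, minus strand: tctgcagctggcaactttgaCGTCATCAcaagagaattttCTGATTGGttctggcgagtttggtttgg

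H2-Eb1, chr17:34305785-34305832, plus strand: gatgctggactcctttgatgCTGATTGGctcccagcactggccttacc

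H2-K1, chr17:34000430-34000477, minus strand: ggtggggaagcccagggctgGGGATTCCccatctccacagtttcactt

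H2-D1, chr17:35262904-35263068, plus strand: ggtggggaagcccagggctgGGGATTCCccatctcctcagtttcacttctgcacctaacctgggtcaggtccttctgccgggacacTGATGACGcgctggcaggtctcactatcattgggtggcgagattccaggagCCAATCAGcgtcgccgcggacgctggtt

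The Y box letters began 51 bases before the start in H2-Aa and 62 bases before it in H2-Eb1, and in H2-D1 they stood on the opposite strand. The RefSeq start of H2-D1 lies inside the gene span of GENCODE given above. Of 32851 promoters, 3.83% held the Y box letters, and among the members searched they were found in H2-Aa, H2-Eb1, H2-D1 and Tap1. The X2 letters were held by 0.63% of promoters and, of the members searched, were found in H2-Aa and H2-D1, in H2-Aa on the opposite strand. The κB letters were held by 0.889% of promoters and were found only in H2-K1 and H2-D1 of the members searched. No match for the 3 motifs was found in the windows of B2m and Psmb8. These matches describe letters and not bound sites.

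Cells were assigned to a type by marker genes that include none of the members. Barcodes with at least 200 genes, at most 30% mitochondrial UMIs and at least 1500 UMIs were kept, 10588 in WT and 5881 in KO, and 84.1% and 81.5% of them passed the margin for 1 of the 8 gates. The gates were crypt base columnar stem cells (CBC, 726 WT and 516 KO cells), transit-amplifying cells (TAC, 1188 and 683), Paneth cells (PC, 3516 and 1355), goblet cells (GC, 1418 and 775), enteroendocrine cells (EEC, 209 and 108), tuft cells (TC, 125 and 88), immature enterocytes (imEC, 449 and 369) and mature enterocytes (mEC, 1270 and 900). In each gate and matrix between 2 and 9 of its own markers stood among its first 10 genes by fold, and none of another gate. KO cells were deeper in every gate, with a median of 12330.5 against 8017.5 UMIs in CBC and 8833 against 5465.5 in mEC. Ctnnb1 itself was in mEC at 213 CPM (its UMIs scaled to the same total of UMIs in every gate) in WT and 126 in KO. Its KO to WT log2 ratio was −0.76 there, beside a median of −0.43 over all genes, and lay between −0.96 and −0.20 over the gates. The deleted enhancer lies outside the Ctnnb1 transcript, so that these counts do not read the deletion itself.

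Cells of other lineages that carry class II were nearly absent. Of the markers of macrophages and dendritic cells, 3 of 11 were at 0 UMIs in WT and 4 of 11 in KO. Itgax, Flt3 and Cd209a were at 0 in both, whereas Zbtb46 of the same list was at 0 in neither. The summed level of this list was 2.33 CPM in WT and 1.87 CPM in KO, most of it from Lyz2. The summed B and plasma cell list, mostly Cd79b, was at 1.28 CPM in WT and 2.53 CPM in KO. T cell markers summed to 0.885 CPM and 1.28 CPM. Barcodes with 3 or more genes of 1 immune list numbered 0 in WT and 2 in KO. With barcodes holding a UMI of Ptprc, Cd3e, Cd3g, Cd79a, Cd79b, Tyrobp or Csf1r left out, the summed class II level of the mEC gate was 2199.9 in place of 2205 CPM in WT and 5003 in place of 5029.6 CPM in KO. Such barcodes were most frequent in TC, with 23.2% in WT and 10.2% in KO, and made up 9.52% of KO TAC. Without them class II was 1053 in place of 1017 CPM in WT TC and 1301 in place of 1254 in KO TC. In KO TAC it was 1601 in place of 1649 CPM.

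Class II transcripts were found along the whole absorptive lineage from the stem cell upward and in WT were lower in secretory cells. In WT the summed level of H2-Aa, H2-Ab1, H2-Eb1 and Cd74 was 2285 CPM in imEC (interval 2237 to 2333), 2205 in mEC (2170.3 to 2239.6), 1828 in CBC (1795 to 1861) and 1544 in TAC (1521 to 1567). It was 1017 CPM in TC, 938 in EEC, 688 in GC (671 to 705) and 236 in PC (233 to 239.8). The intervals of imEC and mEC overlapped, as did those of TC and EEC, and all other neighbours in this order were apart. Stem cells thus held 2.66-fold (2.58 to 2.74) the class II level of goblet cells and 7.74-fold that of Paneth cells in WT. In KO these folds were smaller, 1.14 (1.12 to 1.17) and 3.76 (3.68 to 3.85). There CBC was at 1591 CPM, GC at 1390, EEC at 1318, TC at 1254 and PC at 423.

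The individual chains followed the same order with small differences. H2-Aa, the α chain, was at 341 CPM in WT mEC, 295 in imEC, 233 in CBC, 183 in TAC, 121 in EEC, 109.8 in TC, 78.0 in GC and 29.3 in PC. H2-Ab1, its β partner, ranged from 47.9 CPM in PC to 437 in mEC, and H2-Eb1 from 27.8 in PC to 239 in imEC. Cd74 ranged from 131 CPM in PC to 1359 in imEC, with 1026 in CBC and 897 in TAC. Each of these genes was therefore between 8.59 and 11.7 times as high in its highest as in its lowest gate.

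Ciita, the master coactivator of class II, was rare in these libraries, with 382 UMIs over all gated WT cells and 193 over all KO cells. In WT its level was 13.7 CPM in mEC (97 UMIs), 12.8 in imEC (49 UMIs), 9.34 in CBC (60 UMIs) and 6.77 in TAC (75 UMIs). In PC it was 1.10 CPM and in GC 1.09 CPM, from 80 and 10 UMIs. The gates with most class II were those with most Ciita in WT, although neighbouring gates mostly overlapped within counting error.

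Class I followed a flatter order in which goblet and tuft cells stood high. In WT the summed level of H2-K1, H2-D1 and B2m was 2016 CPM in mEC, 1590.1 in imEC, 1462 in GC, 1353 in TC, 1160.1 in TAC, 1088 in CBC, 973 in EEC and 405 in PC, and no neighbouring intervals overlapped. The range from highest to lowest was 4.98-fold, against 9.67-fold for class II. Goblet cells were 1.34-fold (1.31 to 1.38) above stem cells for class I, whereas for class II they were below them, and the same held in KO with 1.37-fold (1.34 to 1.41). The number of class II UMIs per class I UMI in WT was 1.68 in CBC, 1.44 in imEC, 1.33 in TAC, 1.09 in mEC, 0.964 in EEC, 0.751 in TC, 0.584 in PC and 0.471 in GC.

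The heavy chains differed among themselves. H2-D1 was highest in WT tuft cells, at 455 CPM, against 229 in CBC, a ratio of 1.98 (1.78 to 2.21), and in KO the ratio was 2.35 (2.13 to 2.59). H2-K1 UMIs per H2-D1 UMI were 1.06 in TC and between 1.28 and 2.14 in the other gates of WT. In KO they were 1.12 in TC and between 1.39 and 2.08 elsewhere. Among the peptide supply genes Psmb8, a subunit of the immunoproteasome, was at 436 CPM in imEC, 365 in mEC, 323 in TAC and 238 in CBC of WT and at 33.2 in PC. Tap1 was at 76.0 CPM in WT imEC, 60.8 in mEC, 38.5 in TAC and 5.43 in PC.

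**Figure D1:**
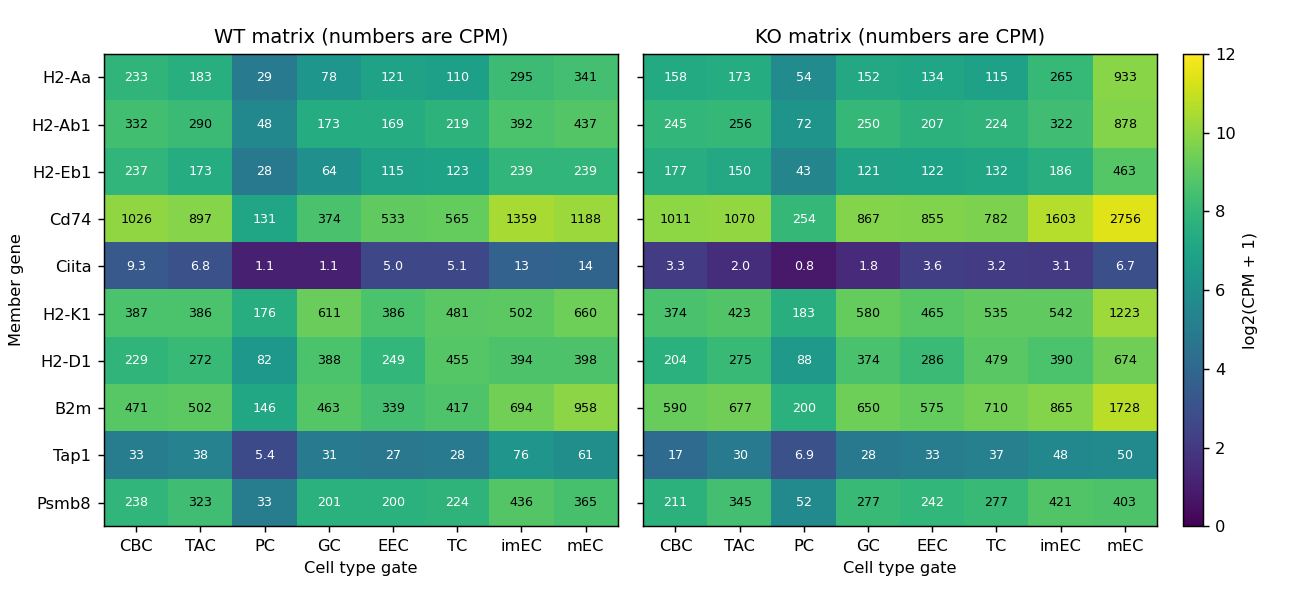
Level of each member (rows) in each cell type gate (columns) in the WT matrix (left) and the KO matrix (right), where the printed number is the summed level in CPM and the colour is log2(CPM + 1), with 1 pooled sample per matrix. The PC column is the lowest for H2-Aa, H2-Ab1, H2-Eb1 and Cd74 in both matrices, and H2-Aa in mEC is at 341 CPM in WT and 933 in KO.

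Most stem and absorptive cells held class II UMIs, and the levels did not rest on a few cells. After each cell had been thinned to 1500 UMIs, a class II UMI was seen in 85.7% of WT CBC (exact interval 82.9% to 88.1%), 80.4% of TAC, 94.0% of imEC and 83.9% of mEC. The share was 46.9% in GC, 44.0% in EEC, 58.4% in TC and 29.4% in PC (27.9% to 31.0%). Paneth cells, with a median of 21848 UMIs before thinning, served as the lowest reference here, and their share may hold free RNA. In KO the share was 47.4% in PC (44.7% to 50.1%), 71.2% in GC (67.9% to 74.4%) and 91.7% in mEC (89.7% to 93.4%). In CBC it was 78.3% in KO (74.5% to 81.8%). Without thinning the CBC shares were 98.4% in WT and 98.5% in KO. The class I share was 81.1% in WT CBC and 78.9% in KO CBC, and 92.5% and 97.9% in mEC.

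**Figure D2:**
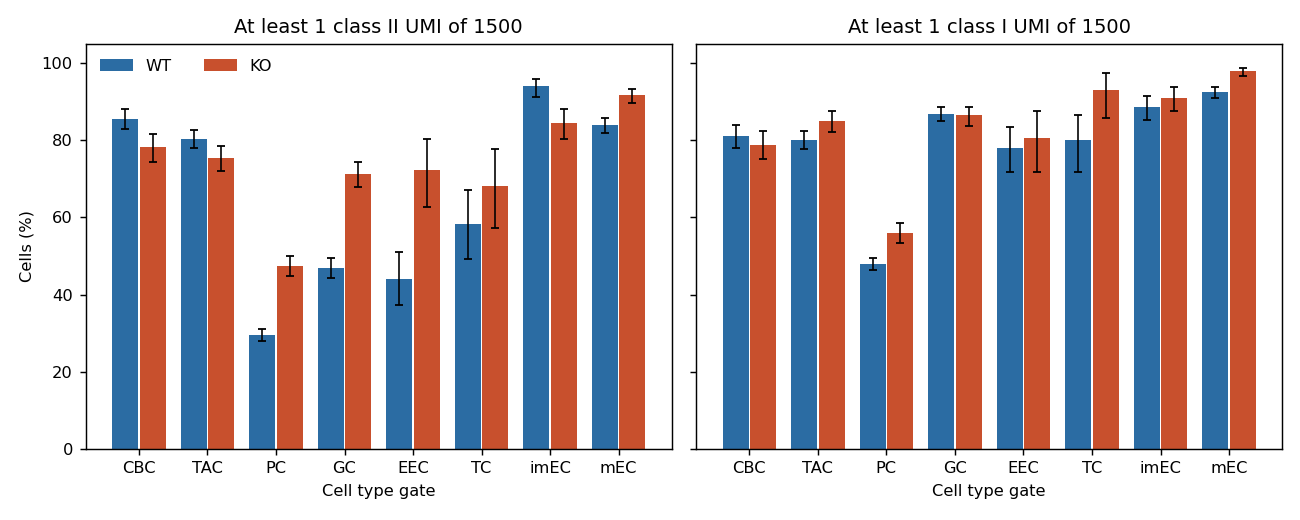
Percentage of cells (vertical axis) of each gate with at least 1 UMI of the summed class II genes (left) or class I genes (right) after thinning each cell to 1500 UMIs, in WT (blue) and KO (red), with exact binomial 95% intervals as error bars. For class II the GC bars are at 46.9% and 71.2%, whereas for class I they are at 86.9% and 86.5%.

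Between cells of a gate, class II varied more in KO than in WT in the crypt gates. The quartiles of imEC lay between 1593 and 3076 CPM of summed class II in WT and between 1105 and 3652 in KO, with medians of 2225 and 2123. In CBC the quartiles were 991 and 2678 CPM in WT and 680 and 2618 in KO, and in TAC 781 and 2133 against 608 and 2498. The lower quartile was thus lower in KO in each of these 3 gates although KO cells were deeper. The lower quartile of class I was higher in KO in these gates, at 719 CPM in WT and 799 in KO in CBC, 804 and 1022 in TAC and 1191 and 1283 in imEC. The thinned share of imEC with a class II UMI was 94.0% in WT and 84.6% in KO while the share with 5 or more was 29.4% and 34.4%. In TAC the share with a class II UMI was 80.4% in WT and 75.4% in KO while that with 5 or more was 13.8% and 19.5%. In both gates the first share goes against the CPM, and no order of the groups was read from it.

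Between KO and WT both summed classes were higher in KO mature enterocytes. For class II the log2 ratio was 1.19 there, above the other gates, but as a mean over cells PC stood at 1.24 and mEC at 1.21, with thinned barcodes at 1.22 and 1.19, and with clusters EEC at 1.21 and TC at 1.20 against 1.14. Of the 10 members, 3 were at least 2-fold higher in KO mEC, where 2.55% of 8643 genes were, and 1 was at least 2-fold lower, where 21.2% were. H2-Aa was at 341 CPM in WT (328 to 355) and 933 CPM in KO (912 to 955) with a KO to WT log2 difference of 1.45 (1.39 to 1.52). H2-Ab1 was at 437 and 878 CPM with a KO to WT log2 difference of 1.01 (0.95 to 1.07), and Cd74 at 1188 and 2756 CPM with a KO to WT log2 difference of 1.21 (1.18 to 1.25). Over the 10 alternatives run for single genes the log2 ratio of H2-Ab1 was between 0.88 and 1.11, and in mature enterocytes low in Fabp6, the bile acid carrier, H2-Ab1 was at 413 and 717 CPM, below 2-fold. That of Ciita, the lower member, was between −1.63 and −0.80, and −0.61 relative to the median of all genes, so that both calls depend on the processing. H2-Eb1 stood just under the limit with 239 and 463 CPM and a log2 ratio of 0.95 (0.87 to 1.04), between 0.85 and 1.06 over the same alternatives. Every class II chain was therefore higher in KO mEC, and H2-Aa by the most, so that H2-Aa UMIs per H2-Ab1 UMI went from 0.780 to 1.06.

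Class I was higher in KO mature enterocytes as well, by less. H2-K1 stood at 660.1 CPM in WT against 1223 in KO with a KO to WT log2 difference of 0.89 (0.84 to 0.94). H2-D1 was at 398 and 674 CPM (log2 ratio 0.76, 0.69 to 0.83) and B2m at 958 and 1728 CPM (0.85, 0.81 to 0.89). The median of all genes in this gate was −0.43 on the log2 scale, so that relative to it class II stood 1.61 and class I 1.27 higher in KO. The supply genes differed less. Psmb8 was at 365 and 403 CPM with a log2 ratio of 0.14 (0.07 to 0.22), and Tap1 at 60.8 and 50.5 CPM with −0.27 (−0.47 to −0.07). Against the median of all genes Tap1 was 0.16 higher in KO mEC and thus changes its direction with the scaling.

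**Figure D3:**
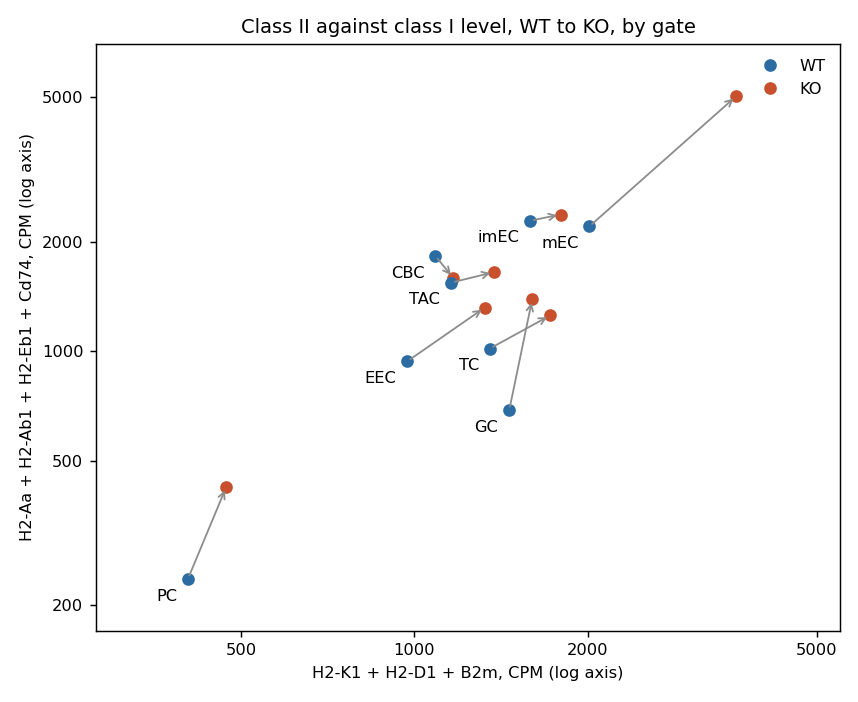
Summed class II level (vertical, CPM, log axis) against summed class I level (horizontal, CPM, log axis) of each gate, with an arrow from WT (blue) to KO (red). The mEC arrow runs from 2016 CPM class I and 2205 CPM class II to 3625 and 5029.6 CPM, while the GC arrow is nearly vertical and the CBC arrow points down.

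Goblet cells differed more in summed class II than in summed class I, for which B2m and the heavy chains went apart. Of the 9 members with at least 50 UMIs in this gate, 1 was at least 2-fold higher in KO, where 5.32% of 10007 genes were, and 0 were at least 2-fold lower, where 13.4% were. Cd74 stood at 374 CPM in WT against 867 in KO with a KO to WT log2 difference of 1.21 (1.16 to 1.27). H2-Aa was at 78.0 and 152 CPM (0.96, 0.84 to 1.09), H2-Eb1 at 63.9 and 121 CPM (0.93, 0.79 to 1.07) and H2-Ab1 at 173 and 250.1 CPM (0.53, 0.45 to 0.62). H2-K1 was at 611 and 580.3 CPM (−0.08, −0.13 to −0.03) and H2-D1 at 388 and 374 CPM (−0.05, −0.12 to 0.01), and both are above 0 once centred on the median of all genes. B2m was at 463 and 649.6 CPM (0.49, 0.44 to 0.54), close to H2-Ab1, and Psmb8 at 201 and 277 CPM (0.46, 0.38 to 0.54). The log2 ratio of Cd74 was between 0.89 and 1.45 over the 10 alternatives run for single genes, so that its place past 2-fold depends on them. When cell types were taken from clusters in place of gates, the log2 ratio of summed class II in goblet cells was 0.69, below 2-fold. Without likely doublets it was 1.11, from 1055 of 1418 WT and 440 of 775 KO cells.

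In Paneth cells the class II sum was 236 CPM in WT and 423 CPM in KO with a KO to WT log2 difference of 0.84 (0.81 to 0.87), and class I was 405 and 472 CPM, 0.22 (0.20 to 0.25). Of the 10 members 0 were past 2-fold in either direction, where 4.3% of 10942 genes were higher and 5.67% lower. When genes holding over 1% of a gate's UMIs did not count towards its total, class I had a log2 ratio of −0.05 and class II of 0.57. As a mean over cells they were 0.44 and 1.24, and with thinned barcodes 0.49 and 1.22, which puts class II past 2-fold.

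RNA of shallow barcodes, which can hold free RNA, moved in the same direction. In barcodes under 1500 UMIs, which were left out of all gates, summed class II was 702 CPM in WT and 1827 CPM in KO, and several gates lay below the value of their own matrix. In KO these were CBC at 1591 CPM, TAC at 1649, GC at 1390.4, EEC at 1318, TC at 1254 and PC at 423, and in WT GC at 688 and PC at 236. Genes of enterocytes were also higher in Paneth and goblet gates of KO. Fabp1, a fatty acid binding protein, stood at 153 CPM in WT against 243 in KO in the PC gate and at 176 and 328 in the GC gate. Class II UMIs per Fabp1 UMI were 0.858 in WT and 2.21 in KO in the shallow barcodes, 1.54 and 1.74 in PC, 3.91 and 4.24 in GC, and 0.158 and 0.351 in mEC. Per Fabp1 UMI the PC gate was thus below the shallow barcodes in KO and above them in WT. No expression of class II by Paneth cells was read from this ratio. In GC the Fabp1 ratio was above that of shallow barcodes and of mEC in both matrices. The position depends on the gene used. Per Apoa1 UMI both gates lay above the shallow barcodes in both matrices, and per Reg3b UMI below them. In KO Apoa1 was at 9079 CPM in shallow barcodes, 448 in PC and 639 in GC. Reg3b stood there at 3582, 1567 and 7245 CPM. The part of free RNA in the difference between the groups was not tested.

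In stem cells the class II chains went the other way. H2-Aa was at 233 CPM in WT CBC (222 to 245) and 158 in KO (149 to 168) with a KO to WT log2 difference of −0.56 (−0.67 to −0.45). H2-Ab1 was at 332 and 245 CPM (−0.44, −0.53 to −0.35) and H2-Eb1 at 237 and 177 CPM (−0.42, −0.53 to −0.31). Cd74 was at 1026 and 1011 CPM, and its interval of −0.07 to 0.03 included 0. Of the 10 members 0 were at least 2-fold higher in CBC, where 0.5% of 9598 genes were, and 1 was at least 2-fold lower, Ciita, where 13% were. The median of all genes in CBC was −0.29, and relative to it the 3 chains were still lower in KO, by 0.27, 0.15 and 0.13, while the summed class II, of which Cd74 makes up most, was 0.09 higher. With marker scores taken over both matrices together the log2 ratio of the sum was −0.32 in place of −0.20, and it was −0.07 both as a mean over cells and with thinned barcodes. B2m stood at 471 CPM in WT CBC and 590.5 in KO (0.33, 0.26 to 0.39) while H2-D1 was at 229 and 204 CPM (−0.17, −0.27 to −0.06).

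The CBC gate was split by the score of the TAC markers, most of them genes of proliferation. CBC cells with a TAC marker score at or above 0, 620 in WT and 396 in KO, held 1848 CPM of summed class II in WT and 1578 in KO, and those below 0, 106 and 120 cells, held 1639 and 1669 CPM. The log2 ratio was −0.23 (−0.27 to −0.19) in the first and 0.03 (−0.09 to 0.14) in the second. The class II sum was thus lower in KO among the cells with the higher score, the interval included 0 among the others, and whether the strata differ was not tested.

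The transit-amplifying and immature enterocyte gates lay between these patterns. In TAC 0 members were at least 2-fold higher (0.433% of 10166 genes) and 1, Ciita, was lower (18.4%), and in imEC 0 were higher (0.608% of 8388 genes) and 1, Ciita, was lower (19.6%). H2-Eb1 stood at 173 CPM in WT against 149.8 in KO in TAC (−0.21, −0.30 to −0.12) and at 239 and 186 in imEC (−0.36, −0.48 to −0.23), and H2-Ab1 at 392 and 322 CPM in imEC (−0.28, −0.38 to −0.19). Cd74 was at 897 and 1070.3 CPM in TAC (0.26, 0.22 to 0.29) and at 1359 and 1603 in imEC (0.24, 0.19 to 0.29). Summed class I had log2 ratios of 0.25 in TAC and 0.18 in imEC, and summed class II of 0.10 and 0.06, or 0.48 and 0.41 relative to the median of all genes. In both gates H2-Ab1 and H2-Eb1 were lower and Cd74 higher in KO on the scale of CPM. Relative to the median of all genes H2-Ab1 was 0.20 higher in TAC and 0.06 higher in imEC, and H2-Eb1 was 0.17 higher in TAC and −0.01 in imEC, so that the direction of these chains depends on the scaling.

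The rare endocrine and tuft gates had wide intervals. Of the 9 members with enough UMIs 0 were past 2-fold in EEC, where 11.1% of 5720 genes were higher and 10.1% lower, and 0 in TC, where 4.97% of 4845 genes were higher and 9.87% lower. Cd74 stood at 533 CPM in WT against 855 in KO EEC (0.68, 0.55 to 0.82) and at 565 and 782 in TC (0.47, 0.32 to 0.62). B2m was at 339 and 575 CPM in EEC (0.76, 0.59 to 0.93) and at 417 and 709.5 in TC (0.77, 0.60 to 0.94). Both genes belong to the shortest quartile of genes by exon length, whose median log2 ratio was 0.65 in EEC and 0.54 in TC. H2-Aa, at 121 and 134 CPM in EEC and 109.8 and 115 in TC, had intervals that included 0 in both. Summed class II had a log2 ratio of 0.49 in EEC and 0.30 in TC, and of 1.21 and 1.20 with clusters in place of gates, which held 123 WT and 30 KO cells for EEC and 54 and 27 for TC.

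**Figure D4:**
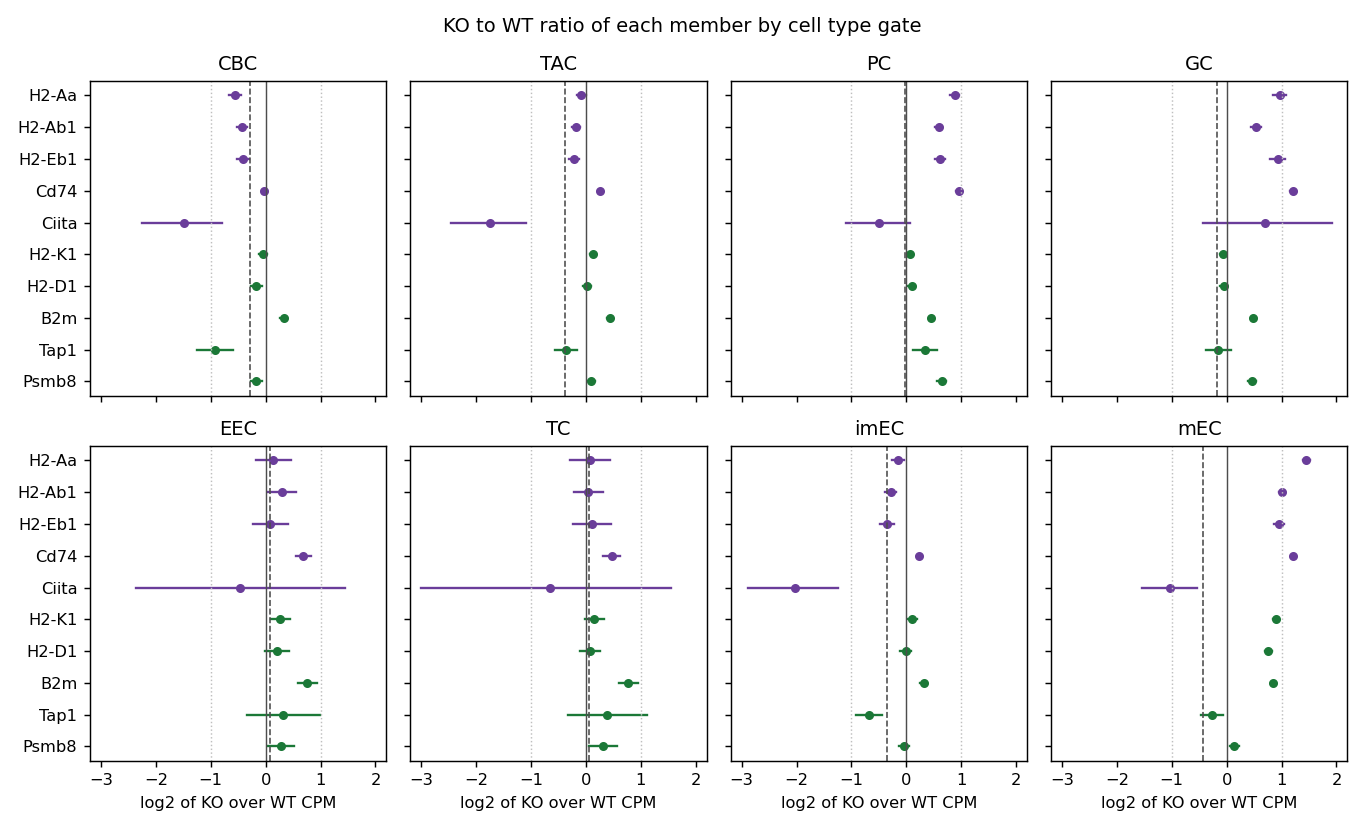
Log2 ratio of KO over WT CPM (horizontal axis) of each member in each gate (panels), with 95% counting intervals as lines, class II genes in purple and class I genes in green. Dashed lines mark the median of all genes of the gate and dotted lines a 2-fold difference, and in mEC the points of H2-Aa, H2-Ab1 and Cd74 lie beyond 2-fold while in CBC the 3 dimer chains lie left of 0.

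Across gates 2 further regularities were seen. Cd74 UMIs per H2-Ab1 UMI were higher in KO in 8 of 8 gates, from 3.09 to 4.13 in CBC, from 2.16 to 3.47 in GC and from 2.72 to 3.14 in mEC. B2m UMIs per H2-K1 UMI were higher in KO in 7 of 8 gates, from 1.22 to 1.58 in CBC, and the exception was mEC with 1.45 and 1.41. Cd74 and B2m have the shorter exons of these pairs, with 1679 bases of exon for Cd74 against 2568 for H2-Ab1 and 860 for B2m against 2938 for H2-K1. Over all genes the KO to WT log2 ratio was lower in longer genes in every gate, with a median from 0.24 in the shortest of 4 equal groups by exon length to −0.77 in the longest in CBC and from 0.09 to −0.94 in mEC. In GC the median of the shortest group was 0.45, beside 0.49 for B2m, 0.53 for H2-Ab1 and 1.21 for Cd74, which all belong to it. In PC it was 0.44, beside 0.45 for B2m and 0.95 for Cd74. In mEC, where it was 0.09, B2m was at 0.85 and Cd74 at 1.21. The part of length in these ratios was not tested.

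On the scale of CPM Ciita went against the class II chains in mature enterocytes and with them in stem cells and immature enterocytes. In mEC it was at 13.7 CPM in WT (97 UMIs) and 6.69 CPM in KO (53 UMIs) with a KO to WT log2 difference of −1.03 (−1.54 to −0.54), while H2-Aa, H2-Ab1 and H2-Eb1 were higher. In CBC it was at 9.34 and 3.31 CPM (60 and 24 UMIs, −1.50, −2.24 to −0.79), in TAC at 6.77 and 2.01 CPM (−1.75, −2.45 to −1.09) and in imEC at 12.8 and 3.13 CPM (−2.03, −2.88 to −1.24). H2-Aa, H2-Ab1 and H2-Eb1 were also lower in KO in CBC and imEC on the scale of CPM, as were H2-Ab1 and H2-Eb1 in TAC. Relative to the median of all genes, H2-Aa was 0.19 and H2-Ab1 0.06 higher in imEC, and H2-Eb1 was at −0.01. Ciita was at −1.68 there, so that the shared direction in imEC depends on the scaling. Over the alternatives run for single genes Ciita in TAC was between −2.06 and −0.52. In GC, where class II was also higher in KO, it was at 1.09 and 1.77 CPM from 10 and 24 UMIs, with an interval of −0.43 to 1.92. Ciita is the longest member, with 9535 bases of exon, and the median log2 ratio of the longest of the 4 groups was −0.94 in mEC, −0.77 in CBC, −0.89 in TAC and −0.93 in imEC. Ciita lay 0.09 below that median in mEC and 0.73, 0.86 and 1.10 below it in CBC, TAC and imEC.

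The mature enterocyte gate was not the same mixture in both groups. Fabp6, which marks ileal enterocytes, was at or above 2000 CPM in 65 of 1270 WT cells (5.12%) and 226 of 900 KO cells (25.1%), a limit chosen after the values were seen. Fabp6-high cells held more class II in both groups, 4948 against 2090.5 CPM in WT, 2.37-fold (2.24 to 2.50), and 8528 against 4117 CPM in KO, 2.07-fold (2.03 to 2.11). Within the cells below the limit, 1205 in WT and 674 in KO, the KO to WT log2 ratio of class II was 0.98 (0.95 to 1.01), and within those above it 0.79 (0.71 to 0.87). Class I in the same strata had log2 ratios of 0.72 (0.69 to 0.75) and 0.64 (0.54 to 0.74). Cells near the limit, with Fabp6 between 1000 and 4000 CPM, numbered 30 in WT and 39 in KO.

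H2-Aa stood at 315 CPM in WT against 719.7 in KO among the Fabp6-low mature enterocytes, and at 959 and 1752 CPM among the Fabp6-high ones. The difference between the groups was therefore present within each stratum and smaller than in the whole gate. Reg3b, an antimicrobial lectin, was at 7152 CPM in WT and 34116 CPM in KO within the Fabp6-low stratum, so that the strata did not equalise the groups. A further split by the villus tip genes Ada, Nt5e, Slc28a2 and Clca4a, with a limit of 500 CPM that was also chosen after the values were seen, left 7 WT and 106 KO cells above it. These held 8939 CPM (7649 to 10384) and 8015 CPM (7786 to 8250) of class II, and with only 7 cells in WT no direction was read from them. Among mature enterocytes below both limits, 1205 in WT and 625 in KO, class II was at 2090.5 and 4050.1 CPM with a KO to WT log2 difference of 0.95 (0.92 to 0.98).

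**Figure D5:**
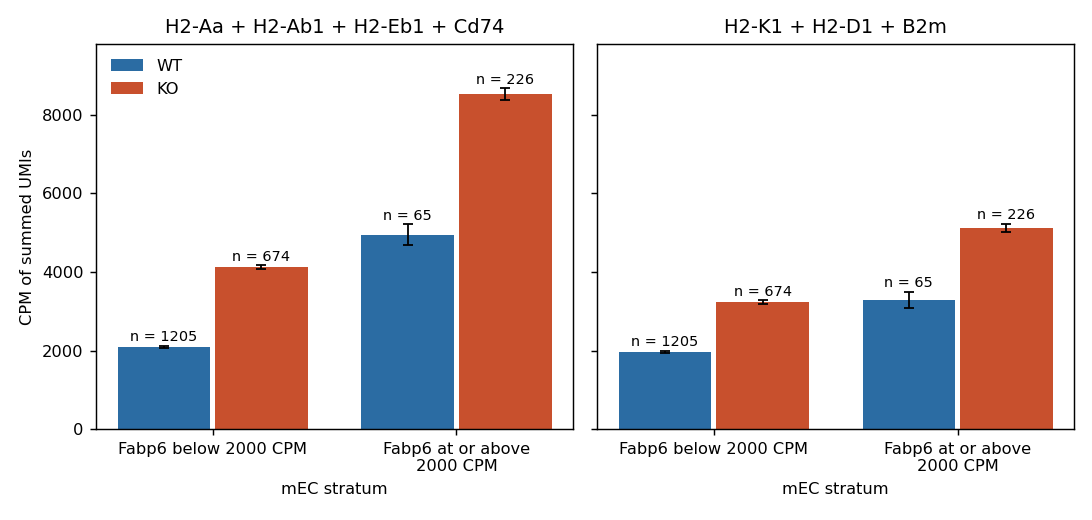
Summed class II (left) and class I (right) level in CPM (vertical axis) of mature enterocytes with Fabp6 below or at least 2000 CPM, in WT (blue) and KO (red), with the number of cells above each bar and 95% Poisson intervals as error bars. The Fabp6-high bars stand above the Fabp6-low bars in each group, and the KO bars above the WT bars in each stratum.

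The other genes of the class II pathway were described from a list of 19 genes, of which 13 beside the members were in the tables. In mEC 0 of the 8 with enough UMIs were past 2-fold, where 2.55% of all genes were higher and 21.2% lower. Their median log2 ratio was 0.64 beside −0.43 over all genes. Ifi30, a thiol reductase of endosomes that unfolds antigens, was past 2-fold in 4 gates and higher in KO in all 8, at 133 CPM in WT and 281 in KO in GC and at 217 and 341 CPM in mEC. Ctss, the protease that cuts Cd74 away from the groove, was past 2-fold in 3 gates, at 11.9 and 27.9 CPM in GC, 3.07 and 8.26 CPM in PC and 15.1 and 35.9 CPM in EEC. In imEC Ctss was at 68.7 and 68.5 CPM. Of all genes 4.3% were at least 2-fold higher in PC, 5.32% in GC, 11.1% in EEC and 4.97% in TC. Rfx5, a subunit of the factor that binds the X box, was lower in CBC at 8.41 and 3.45 CPM and in TAC at 5.42 and 2.32 CPM, from 54 and 25 and from 60 and 30 UMIs. Ctsl was lower past 2-fold only in EEC, at 43.5 and 20.7 CPM. Of all genes 13% were at least 2-fold lower in CBC, 18.4% in TAC and 10.1% in EEC.

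The class I list of 17 genes held 12 beside the members. Psme2, a subunit of the proteasome activator, was past 2-fold in 4 gates and higher in KO in all 8, at 215 CPM in WT and 537 in KO in GC and at 473 and 860.04 CPM in mEC. The 4 gates were PC, GC, EEC and TC, where 4.3%, 5.32%, 11.1% and 4.97% of all genes were at least 2-fold higher. Erap1, which trims peptides in the endoplasmic reticulum, was past 2-fold only in TAC and was lower there, at 53.7 and 25.5 CPM. Of all genes 18.4% were at least 2-fold lower in TAC. In mEC 0 of the 11 with enough UMIs were past 2-fold, where 2.55% of all genes were higher and 21.2% lower, and their median was −0.16 beside −0.43 over all genes. Of 14 nonclassical class I genes and neighbours in the tables, H2-T23, which encodes Qa-1, stood at 84.5 CPM in WT mEC and 237 in KO with a KO to WT log2 difference of 1.49, whereas in GC it was at 96.1 and 92.3 CPM. H2-Q10 was past 2-fold in GC at 4.59 and 10.7 CPM, and H2-Ke6, which is a hydroxysteroid dehydrogenase and no MHC molecule, in imEC at 16.7 and 36.5 CPM.

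Of the 16 genes of the type I and III interferon response with enough UMIs in mEC, 7 were at least 2-fold higher in KO beside 2.55% of all genes. None was at least 2-fold lower in the whole gate, beside 21.2% of all genes. Their median log2 ratio was 0.87. Isg15, a ubiquitin-like antiviral protein, stood at 18.3 CPM in WT against 82.9 in KO (130 and 657 UMIs), Irf7 at 28.2 and 90.7 CPM, Ifit1 at 23.7 and 52.5 CPM and Oas1a at 4.66 and 16.9 CPM. These 7 genes were also at least 2-fold higher in Fabp6-low mature enterocytes, Isg15 at 18.2 and 81.6 CPM and Irf7 at 27.0 and 72.2 CPM. In CBC 0 of 12 genes of this list were past 2-fold, where 0.5% of all genes were higher and 13% lower, and nothing was read from this count. Ifitm3, a membrane protein that blocks viral entry, stood at 76.6 CPM in WT against 231 in KO in GC, and at 988 and 1455 CPM in CBC. It was the only 1 of 15 genes of this list at least 2-fold higher in GC, where 5.32% of all genes were. Stat2, at 19.3 and 7.28 CPM, was the 1 at least 2-fold lower, where 13.4% were. The median of the list in GC was −0.40 beside −0.17 over all genes, and Isg15 was at 18.5 and 15.2 CPM.

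Of the interferon gamma list 13 of 24 genes had enough UMIs in mEC, and 3 were at least 2-fold higher, where 2.55% of all genes were, and 1 was lower, where 21.2% were. Their median was −0.16, above the −0.43 of all genes. The higher ones were the GTPases Igtp, at 23.7 and 49.1 CPM, and Ifi47, at 19.8 and 40.3 CPM, and the nucleic acid sensor Zbp1. Jak2, a kinase of the interferon gamma receptor, was lower past 2-fold in 6 gates, at 57.0 CPM in WT and 23.6 in KO in mEC and 22.6 and 8.14 in CBC. In these gates between 5.67% and 21.2% of all genes were at least 2-fold lower. Gbp7 was lower past 2-fold in CBC, TAC and GC, where 13%, 18.4% and 13.4% of all genes were. Socs1 was higher past 2-fold in PC and GC, where 4.3% and 5.32% of all genes were, from 26 and 40 and from 23 and 70 UMIs. Costimulatory genes were nearly absent, with Cd86 and Pdcd1lg2 at 0 UMIs in both matrices, Cd80 at 2 in WT and 0 in KO, and Cd274 at 16 and 36 UMIs. Tnfsf15, a cytokine of the tumour necrosis factor family, was the only gene of this list with enough UMIs in any gate, and in PC it stood at 4.03 CPM in WT against 1.05 in KO.

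Among the members, likeness was measured over the 16 points (8 gates in 2 matrices). The Pearson correlation of log2(CPM + 10) was between 0.95 and 0.97 among H2-Aa, H2-Ab1, H2-Eb1 and Cd74 and 0.95 between H2-K1 and H2-D1, and between the sums of the classes it was 0.89. B2m stood at 0.94 with H2-Ab1, 0.94 with Cd74, 0.92 with H2-K1, 0.91 with H2-Aa, 0.88 with H2-Eb1 and 0.86 with H2-D1. Ciita correlated less with the chains, from 0.56 with Cd74 to 0.72 with H2-Eb1. Among 6196 other genes with at least 20 CPM in at least 3 points, H2-DMa, a subunit of the class II peptide editor, was nearest to summed class II with 0.98, followed by Pnp (0.96), 9430038I01Rik (0.96), Tspan3 (0.96) and Slc39a5 (0.96). Among those nearest to summed class I were Dnpep (0.98), Actb (0.98), Itm2b (0.98) and Ndufa1 (0.97). The points share cells' libraries, depth and the low level of Paneth cells, and these correlations are descriptions without a test.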

How the data were processed

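The deposited values were raw UMI counts per gene and barcode, 1 matrix per group, in which the authors had pooled the animals. They had been made with Cell Ranger, whose version is 2.1.1 in the submitters' notes and 4.0.0 per the file headers, on build mm10 from 10x Genomics 3-prime v2 libraries. The number of animals behind each matrix is given differently within the sources, and no barcode could be tied to an animal. The genes and the lists were chosen with earlier results of these data known.

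Barcodes with at least 200 genes, at most 30% mitochondrial UMIs and at least 1500 UMIs were kept; the last limit was set after the values were seen. Counts were scaled to 10000 per cell, log transformed and turned into z scores within each matrix (limited to −3 and 5). A cell took the gate with the highest mean marker score if it was at least 0.5 and at least 0.25 above the second. Between 2.27% and 14.4% of the cells of a gate lay within 0.1 of a limit. Doublets were not removed, and their removal was an alternative. Levels are CPM of UMIs summed over a gate, with exact Poisson intervals. KO to WT log2 ratios have exact conditional binomial intervals (95%), and shares have Clopper-Pearson intervals. A 2-fold difference was counted among genes with at least 50 UMIs over both matrices in the gate, with 3 counts as the floor. The ratio was tested on simulated counts. Named beside the members were, of each pathway list, up to 6 genes past 2-fold in most gates, and the 5 genes most like each summed class, of which 1 is not reported here; genes named for a level of 0 or within mature enterocytes were chosen after their values were seen. Of the gene identifiers, 27645 of 27998 (98.7%) were in GENCODE M21, whose exon lengths were used. Python 3.11.15, numpy 2.4.6, scipy 1.17.1, pandas 2.3.3 and scikit-learn 1.9.0 were used.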

Additional observations from a re-analysis of the deposited data

Results flagged for a closer look

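Of the 10 members, 5 had KO to WT log2 ratios of opposite sign in crypt base columnar cells and in mature enterocytes, with counting intervals that excluded 0 in both. H2-Aa was at −0.56 in the former and 1.45 in the latter, H2-Ab1 at −0.44 and 1.01, H2-Eb1 at −0.42 and 0.95, H2-D1 at −0.17 and 0.76, and Psmb8 at −0.17 and 0.14. With 1 pooled sample per group the difference between the gates was not tested. Centred on the median of all genes, H2-Aa, H2-Ab1 and H2-Eb1 remained lower in CBC, and H2-D1 and Psmb8 were 0.12 higher each. In 10 of 10 alternatives run for single genes the signs of these 5 genes held in both gates.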

How the results depend on the processing

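No paired analysis was possible because each group was 1 pooled matrix, and with 1 matrix per group leaving out samples in turn was not run. Summed class II and class I were recomputed under 9 alternatives and under 5 more chosen after the data were seen. The sign held in every gate and alternative with these exceptions: class II in CBC was −0.20 and 0.09 once centred on the median of all genes, and class I in PC and GC was −0.05 and −0.04 with genes above 1% of UMIs out of the denominator.

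The median class II log2 ratio over gates was 0.40. It was 0.19 with genes above 1% of UMIs out, 0.78 with clusters, 0.82 without likely doublets, 0.72 as a mean over cells and 0.77 with thinned barcodes. The cause was not tested. For class I the median of 0.23 was 0.17, 0.28 and 0.29 with abundant genes out, as a mean over cells and thinned, and 0.19, 0.20 and 0.38 without a UMI minimum, with joint z scores and centred.

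In mEC class II, at 1.19, was 1.29 with abundant genes out, 1.14 with clusters, 1.08 with joint z scores, 1.16 without mitochondrial UMIs, 0.98 without Fabp6-high cells and 1.61 when centred. Class I in mEC, at 0.85, was 0.95 with abundant genes out, 0.81 with clusters, 0.95 thinned, 0.73 with joint z scores, 0.72 without Fabp6-high cells and 1.27 when centred. In mEC 2054 genes were past 2-fold, and 1052 with a minimum of 200 UMIs. Depth limits Ciita most, with 4 to 97 UMIs per gate and matrix.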
